A study of Mus musculus with 9 samples.

Results

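Eph receptors and ephrins, the cell surface receptors and ligands by which neighbouring cells signal to each other, were followed through restoration of the tumour suppressor Apc in mouse tumour organoids. The 10 genes described are the B-type receptors Ephb2, Ephb3 and Ephb4, the A-type receptors Epha1, Epha2 and Epha4, the B-type ephrins Efnb1 and Efnb2, and the A-type ephrins Efna1 and Efna4. They were found by gene name, through their Ensembl identifiers, among 21253 genes in the count table, and all 10 were among the 12535 genes with enough counts to be tested. With the 12 other family genes that were looked up, the family comprised 22 genes.

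RNA was sequenced from cultured AKP tumour organoids (tumoroids), which carry a short hairpin RNA against Apc that doxycycline switches on. The labels do not spell out AKP. All 3 groups share this background: 3 control samples kept in doxycycline, so that Apc is off, 3 samples taken after 2 days without doxycycline, and 3 taken after 7 days without it. The comparisons ask how these genes respond to each length of Apc restoration. Doxycycline removal, Apc restoration and any difference in time in culture cannot be told apart here, and Apc was silenced by a hairpin, not deleted, in the controls. Because the replicates are labelled technical, the spread that the p-values measure is that between these samples and may be technical.

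Eph receptors are receptor tyrosine kinases and ephrins are their membrane-bound ligands. A-type ephrins are held by a lipid anchor and B-type ephrins span the membrane, and each type binds mainly receptors of its own type. Signals pass into both cells when the cells touch, often making them part, and this sorts cells into separate territories. In the intestinal lining EphB receptors are known as Wnt target genes of the proliferating crypt cells, while ephrin-B ligands are made by the differentiated cells above them; their signalling keeps these cells in place.

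Each library held 24143589 to 32277040 counts, and levels are given as CPM (counts relative to a library total scaled by TMM and set to 1e6, which assumes that most genes keep their level). Apc itself averaged 7.49 ± 1.17 CPM in controls, 31.6 ± 6.66 CPM at 2 days and 76.9 ± 13.9 CPM at 7 days (SD, n = 3 each). The 7-day libraries stood apart in composition: their 10 most abundant genes took 12% to 13.8% of counts, against 6.25% to 7.11% in controls. With library size alone in place of TMM, the median gene moved by −0.43 on the log2 scale at 7 days, against −0.03 with TMM. Summed over 8 epithelial markers, levels were 9710 to 12800 CPM in controls, 14400 to 16400 CPM at 2 days and 26700 to 36400 CPM at 7 days, with no marker at 0. The sum rested mostly on Krt8, which averaged 11900 CPM at 7 days and 3820 CPM in controls, and Krt19, at 12200 CPM at 7 days and 2760 CPM in controls; 4 of the 8 were called higher at 2 days and 7 of 8 at 7 days, and Cdx2 at neither time. Sums over 8 endothelial markers were 9.52 to 10.5 CPM in controls, 7.82 to 8.94 CPM at 2 days and 6.63 to 7.51 CPM at 7 days. Most of that was Egfl7 (4.41 CPM at 7 days and 7.96 CPM in controls), which was called lower at 7 days. The other tested markers did not fall by 7 days. Tie1, at 0.963 CPM at 7 days and 0.652 CPM in controls, was called higher. That call lay at the threshold (edgeR adjusted p of 0.05 after rounding), with 74 counts over the 7-day libraries and 58 over the controls. Tek, at 1.51 CPM at 7 days and 1.08 CPM in controls, was called higher only between 7 and 2 days. Pecam1 lay at 0.231 to 0.344 CPM in the group means, Emcn at 0, and Cdh5, Kdr and Cldn5 at or near 0. The 8 mesenchymal markers summed to 0.563 to 1.16 CPM in any library, with Lum at 0. The 2 with enough counts to be tested went opposite ways at 7 days. Pdgfrb was called higher, at 0.504 CPM against 0.00957 CPM in controls. Col1a2 was called lower, at 0.114 CPM against 0.568 CPM in controls, and was also called lower at 2 days. The 8 immune markers summed to 1.24 to 1.58 CPM in controls, 1.52 to 1.99 CPM at 2 days and 3.81 to 5.8 CPM at 7 days, with Tyrobp at 0. Both immune markers with enough counts to be tested were called higher at 7 days: Cd68, at 3.36 CPM against 1.11 CPM in controls, and Csf1r, at 0.956 CPM against 0.0247 CPM in controls. The part of these marker differences in the results below was not tested, and in bulk samples fewer cells of a type and less RNA per cell cannot be told apart.

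Among the B-type receptors, Ephb2 and Ephb3 fell at 2 days and further at 7 days, while Ephb4 did not pass the test at either time. Ephb2 (ENSMUSG00000028664, GRCm38 chromosome 4, 136647539 to 136835988, minus strand) is one of the EphB receptors known from the proliferating crypt cells. Controls held 121, 124 and 114 CPM, 2-day samples 80.1, 96.1 and 71.4 CPM, and 7-day samples 42.4, 38.4 and 32.6 CPM. No sample of one group overlapped with another group, and the 2-day samples were the most scattered. Ephb2 averaged 82.5 ± 12.5 CPM in 2-day samples and 120 ± 5.18 CPM in controls, 1.45-fold lower (log2 fold change −0.54 ± 0.11 SE, edgeR adjusted p = 0.002). At 7 days it averaged 37.8 ± 4.92 CPM, 3.18-fold lower than in controls (−1.67 ± 0.11, edgeR adjusted p = 1.9e-09).

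Ephb3 (ENSMUSG00000005958, chromosome 16, 21204755 to 21223305, plus strand), which acts with Ephb2 in placing crypt cells, stood at 47.4, 50.4 and 44.5 CPM in controls. The 2-day samples held 33.9, 34.2 and 31.7 CPM and the 7-day samples 20.1, 19.5 and 17.3 CPM, again with no overlap between groups. It fell 1.42-fold at 2 days (log2 fold change −0.51 ± 0.08, edgeR adjusted p = 0.00036) and, at 7 days, 2.51-fold (−1.33 ± 0.09, edgeR adjusted p = 1.3e-09). Within a library, the Ephb2 level per kilobase of exon over that of Ephb3 was 1.33 ± 0.029 in controls, 1.3 ± 0.156 at 2 days and 1.05 ± 0.0591 at 7 days. The ratio's 2-day samples overlapped with the controls, whereas the 7-day samples lay below both groups.

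Ephb4 (ENSMUSG00000029710, chromosome 5, 137350109 to 137378669, plus strand), known best from veins and also made by intestinal epithelium, stood at 82.6, 78 and 65.6 CPM in controls. The 2-day samples held 65.3, 67.9 and 55.3 CPM and the 7-day samples 77.7, 68.1 and 59.5 CPM, and the samples of all groups overlapped. The difference was −0.26 ± 0.11 on the log2 scale at 2 days (95% interval −0.50 to −0.02, edgeR adjusted p = 0.11) and −0.14 ± 0.11 at 7 days (−0.38 to 0.10, edgeR adjusted p = 0.25). The 7-day difference rests on the scaling: it was −0.55 with library size alone (edgeR adjusted p = 0.00015) and −0.25 with upper-quartile factors (edgeR adjusted p = 0.046). The 2-day difference passed the test without control replicate 3, at −0.35 (edgeR adjusted p = 0.031), and in 3 alternative fits with adjusted p of 0.0051 to 0.048. The Ephb2 level per kilobase of exon over that of Ephb4, which no scaling affects, was 0.589 ± 0.0506 in controls and 0.483 ± 0.0352 at 2 days. It was 0.203 ± 0.00364 at 7 days, and the groups did not overlap. This ratio depends on the gene length used. With the median coding transcript as the length, Ephb2 lay above Ephb4 in controls (25 against 18.7 CPM per kilobase) and at 2 days (17.2 against 15.5). At 7 days it lay below (7.87 against 16.9).

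**Figure D1:**
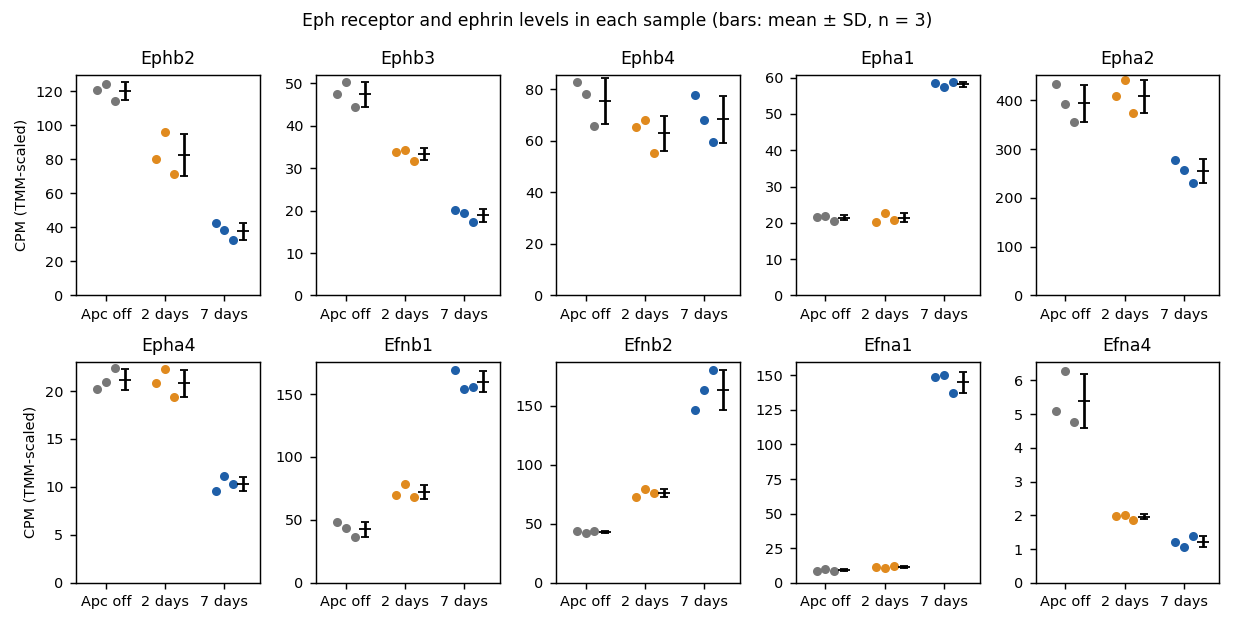
Level of each of the 10 genes in each sample, in TMM-scaled CPM on axes that start at 0. Points are the 3 samples of a group (Apc off is the control), and the bars beside them are the mean ± SD; Ephb2 and Ephb3 step down at each time, Efnb1 and Efnb2 step up, and Efna1 lies at 8.69 to 12 CPM until 7 days, when it lies at 137 to 150 CPM.

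Both B-type ephrins moved the other way, rising at 2 days and further at 7 days by similar factors. Efnb1 (ENSMUSG00000031217, chromosome X, 99136130 to 99148991, plus strand), a ligand of Ephb2 and Ephb3, stood at 48, 43.6 and 36 CPM in controls. It reached 69.8, 78.3 and 67.9 CPM in 2-day samples and 169, 154 and 156 CPM in 7-day samples, and the groups did not overlap. Efnb1 rose 1.69-fold at 2 days (log2 fold change 0.76 ± 0.10, edgeR adjusted p = 4.5e-05) and, at 7 days, 3.75-fold (1.91 ± 0.10, edgeR adjusted p = 1.1e-10).

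Efnb2 (ENSMUSG00000001300, chromosome 8, 8617434 to 8661242, minus strand), a ligand that also binds Ephb4, stood at 43.5, 41.9 and 43.9 CPM in controls. The 2-day samples lay at 72.5, 79.1 and 75.9 CPM and the 7-day samples at 146, 163 and 180 CPM, so that each group lay wholly above the one before it. Efnb2 rose 1.76-fold at 2 days (log2 fold change 0.81 ± 0.08, edgeR adjusted p = 3.7e-06) and, at 7 days, 3.78-fold (1.92 ± 0.09, edgeR adjusted p = 1.4e-11). Per kilobase of exon, Efnb2 over Efnb1 was 0.518 ± 0.0831 in controls, 0.532 ± 0.0286 at 2 days and 0.517 ± 0.0752 at 7 days, and the samples of the groups overlapped.

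The balance of receptor to ligand RNA turned round. The summed level of the tested EphB receptors (Ephb2, Ephb3, Ephb4 and the rarer Ephb6) over that of the tested ephrin-Bs (Efnb1, Efnb2 and the rarer Efnb3), per kilobase and within a library, was 1.74, 1.87 and 1.79 in controls. It was 0.848, 0.821 and 0.747 at 2 days and 0.339, 0.31 and 0.258 at 7 days. Every control library thus held more receptor than ligand RNA per kilobase, and every library with Apc restored held less. For the pair Ephb2 and Efnb1 the ratio was 0.781 ± 0.088 in controls, 0.313 ± 0.024 at 2 days and 0.0647 ± 0.00644 at 7 days. These ratios depend on the gene length used, which for Ephb2 is 12608 bases over all its annotated exons and 4804 bases for its median coding transcript. With the second length, an alternative chosen after the data had been seen, the Ephb2 over Efnb1 ratio was 1.92, 0.778 and 0.16 for controls, 2 days and 7 days, and the summed ratio was 2.48, 1.07 and 0.356. The 2-day summed ratio was then above 1, while the order of the groups was the same.

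**Figure D2:**
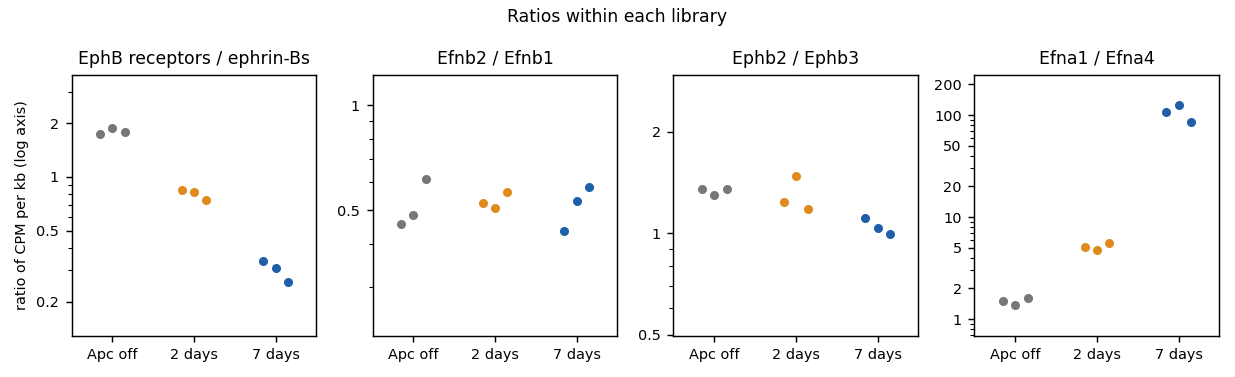
Ratios of levels per kilobase of exon within each library, on log axes that differ between panels, with 3 samples per group and Apc off as the control. The EphB to ephrin-B ratio lies at 1.74 to 1.87 in controls and at 0.258 to 0.339 at 7 days, Efnb2 over Efnb1 overlaps between groups, and Efna1 over Efna4 reaches 85.8 to 125 at 7 days.

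The A-type receptors did not pass the test at 2 days, and at 7 days Epha1 rose while Epha2 and Epha4 fell. Epha1 (ENSMUSG00000029859, chromosome 6, 42358487 to 42373268, minus strand), an epithelial receptor for Efna1, stood at 21.5, 22 and 20.6 CPM in controls and at 20.3, 22.8 and 20.9 CPM at 2 days. At 7 days it stood at 58.5, 57.4 and 58.7 CPM, above every other sample and within a narrow range. The difference was 0.00 ± 0.08 on the log2 scale at 2 days (95% interval −0.17 to 0.17, edgeR adjusted p = 0.99). At 7 days Epha1 rose 2.72-fold (1.44 ± 0.08, edgeR adjusted p = 1.3e-10). Of its exon bases, 236 (6.01%) overlap those of Zyx on the other strand, and no source used here says that the counting used strand; Zyx averaged 91.7 ± 14 CPM in controls, 92.3 ± 9.48 CPM at 2 days and 106 ± 20.5 CPM at 7 days.

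Epha2 (ENSMUSG00000006445, chromosome 4, 141301240 to 141329384, plus strand), a receptor for Efna1 that is widely studied in carcinomas, had the highest CPM of the 10 genes in every library. Controls held 433, 393 and 356 CPM, 2-day samples 408, 442 and 374 CPM, and 7-day samples 278, 257 and 230 CPM. The 2-day samples overlapped with the controls, and all 7-day samples lay below both. At 2 days the difference was 0.05 ± 0.10 on the log2 scale (95% interval −0.16 to 0.26, edgeR adjusted p = 0.75), and at 7 days Epha2 fell 1.54-fold (−0.63 ± 0.10, edgeR adjusted p = 2.6e-05).

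Epha4 (ENSMUSG00000026235, chromosome 1, 77367185 to 77515088, minus strand), a receptor that binds ephrins of both types, stood at 20.2, 20.9 and 22.4 CPM in controls and 20.8, 22.3 and 19.4 CPM at 2 days. Its 7-day levels were 9.56, 11.1 and 10.3 CPM, below all other samples. It differed by −0.03 ± 0.09 on the log2 scale at 2 days (95% interval −0.22 to 0.17, edgeR adjusted p = 0.87) and fell 2.05-fold at 7 days (−1.04 ± 0.10, edgeR adjusted p = 7.6e-08).

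The A-type ephrins moved apart: Efna1 had the largest 7-day rise of the 10 genes and Efna4 the largest fall. Efna1 (ENSMUSG00000027954, chromosome 3, 89271733 to 89281142, minus strand), the main ligand studied with Epha2, stood at 8.69, 9.84 and 8.81 CPM in controls. Its 2-day samples held 11.6, 10.8 and 12 CPM and its 7-day samples 149, 150 and 137 CPM, so the groups did not overlap and most of the change lay after 2 days. At 7 days it rose 15.9-fold (log2 fold change 3.99 ± 0.09, edgeR adjusted p = 6.2e-15). The 2-day rise was 1.26-fold (0.33 ± 0.09, edgeR adjusted p = 0.015). This 2-day call was lost without control replicate 1, 2-day replicate 1 or 2-day replicate 3, where the log2 fold change was 0.31, 0.32 and 0.30 and the edgeR adjusted p 0.057, 0.053 and 0.054.

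Efna4 (ENSMUSG00000028040, chromosome 3, 89333390 to 89338028, minus strand), another A-type ligand, had the lowest CPM of the 10 genes in all groups. Controls held 5.1, 6.29 and 4.76 CPM, 2-day samples 1.99, 2.01 and 1.87 CPM, and 7-day samples 1.21, 1.05 and 1.39 CPM, with no overlap. It fell 2.76-fold at 2 days (log2 fold change −1.47 ± 0.15, edgeR adjusted p = 3.5e-06) and, at 7 days, 4.42-fold (−2.14 ± 0.17, edgeR adjusted p = 1.1e-08). An annotated antisense RNA, 4731419I09Rik, shares 168 (10.5%) of its exon bases and was not analysed here, so reads from it may be among these counts.

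Efna1 and Efna4 are close neighbours, 52247 bases apart on the same strand, with Efna3, another A-type ligand, between them. Efna3 averaged 3.37 ± 0.434 CPM in controls, 1.06 ± 0.138 CPM at 2 days and 0.548 ± 0.0846 CPM at 7 days. It fell 3.15-fold at 2 days (log2 fold change −1.66 ± 0.17, edgeR adjusted p = 3.9e-06) and, at 7 days, 6.11-fold (−2.61 ± 0.20, edgeR adjusted p = 9.9e-09), and 344 (14.1%) of its exon bases overlap the antisense RNA Gm15998. Of these 3 neighbours, Efna1 rose while Efna3 and Efna4 fell. Efna1 over Efna4 per kilobase was 1.49 ± 0.124 in controls, 5.15 ± 0.451 at 2 days and 106 ± 19.6 at 7 days.

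The 250 bases before the annotated start are shown for these neighbours of opposite direction, and for Ephb2 and Efnb2 as a receptor that fell and a ligand that rose. They are RefSeq sequences (GRCm38.p6), written 5′ to 3′ on the gene's own strand. Capitals mark CTTTG, the core bound by the TCF and LEF factors of the Wnt pathway, and GGGCGG, a GC box, on either strand; the 2 motifs do not overlap.
Efna1 promoter, chr3:89279646-89279895, minus strand: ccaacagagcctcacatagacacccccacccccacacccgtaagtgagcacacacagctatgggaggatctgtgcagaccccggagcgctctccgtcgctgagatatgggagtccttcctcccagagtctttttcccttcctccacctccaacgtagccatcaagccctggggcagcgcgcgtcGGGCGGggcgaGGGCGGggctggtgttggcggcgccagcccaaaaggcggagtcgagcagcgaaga
Efna4 promoter, chr3:89338029-89338278, minus strand: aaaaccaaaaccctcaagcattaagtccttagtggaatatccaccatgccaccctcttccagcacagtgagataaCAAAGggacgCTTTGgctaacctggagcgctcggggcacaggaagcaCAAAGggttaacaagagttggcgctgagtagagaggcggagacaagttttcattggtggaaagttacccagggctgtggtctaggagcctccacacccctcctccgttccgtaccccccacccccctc
Ephb2 promoter, chr4:136836013-136836262, minus strand: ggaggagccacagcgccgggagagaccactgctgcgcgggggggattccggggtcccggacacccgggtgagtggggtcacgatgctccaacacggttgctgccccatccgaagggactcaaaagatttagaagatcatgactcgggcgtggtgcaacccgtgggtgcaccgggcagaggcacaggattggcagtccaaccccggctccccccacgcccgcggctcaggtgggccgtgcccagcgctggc
Efnb2 promoter, chr8:8661243-8661492, minus strand: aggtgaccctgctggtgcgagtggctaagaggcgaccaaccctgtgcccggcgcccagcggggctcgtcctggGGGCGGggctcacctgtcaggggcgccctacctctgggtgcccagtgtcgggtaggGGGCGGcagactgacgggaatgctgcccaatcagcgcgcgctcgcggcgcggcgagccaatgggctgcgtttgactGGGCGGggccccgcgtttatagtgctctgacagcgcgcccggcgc
Efna1 has 2 annotated starts, and the window of the one whose 250 bases hold no annotated exon is shown. This window lies inside the Efna1 gene as placed above, and the window of the other start held 2 matches to CTTTG and 1 to GGGCGG. The bases just after the RefSeq start of Ephb2 did not match a GENCODE M21 transcript of Ephb2, while those of the other shown genes matched theirs.

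The Efna4 window held 3 matches to CTTTG and none to GGGCGG, the Efna1 window 2 matches to GGGCGG, the Efnb2 window 3 matches to GGGCGG, and the Ephb2 window neither motif. All 10 genes were matched to a window. CTTTG was found for 3 of the 10 genes (Efna1 at its other start, Efna4 and Epha2). That is 3 of their 11 windows, against 48.6% of 32851 windows of all genes. The longer CTTTGAA or CTTTGAT, which contains CTTTG, was found for 1 of the 10, Epha2, in 1 of the 11 windows, against 7.48% of all windows. GGGCGG was found for 7 of the 10 genes, in 8 of the 11 windows, against 32.7% of all windows. The windows of all genes had a median GC content of 52.4%. The shown windows of Ephb2, Efnb2, Efna1 and Efna4 had 68.4%, 72%, 64.4% and 54.4%, and GC content was not matched for either motif. A match is a string of letters and does not show binding.

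Counted together, 3 of the 10 genes rose at 2 days (Efnb1, Efnb2 and Efna1), 3 fell (Ephb2, Ephb3 and Efna4) and 4 did not pass the test. Of all 12535 genes tested, 23.7% were called at 2 days, 13.1% higher and 10.6% lower. The groups did not overlap for 6 of the 10 genes, against 39.3% of all genes. At 7 days 4 rose (Epha1, Efnb1, Efnb2 and Efna1), 5 fell (Ephb2, Ephb3, Epha2, Epha4 and Efna4) and Ephb4 did not pass the test. At that time 82.3% of all genes were called, 40.5% higher and 41.8% lower, so the count of called members is near the background. The groups did not overlap for 9 of the 10 genes, against 82.3% of all genes. The median log2 fold change over the 10 genes was −0.01 at 2 days and −0.38 at 7 days, against 0.00 and −0.03 over all genes. Both times were set against the same controls.

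**Figure D3:**
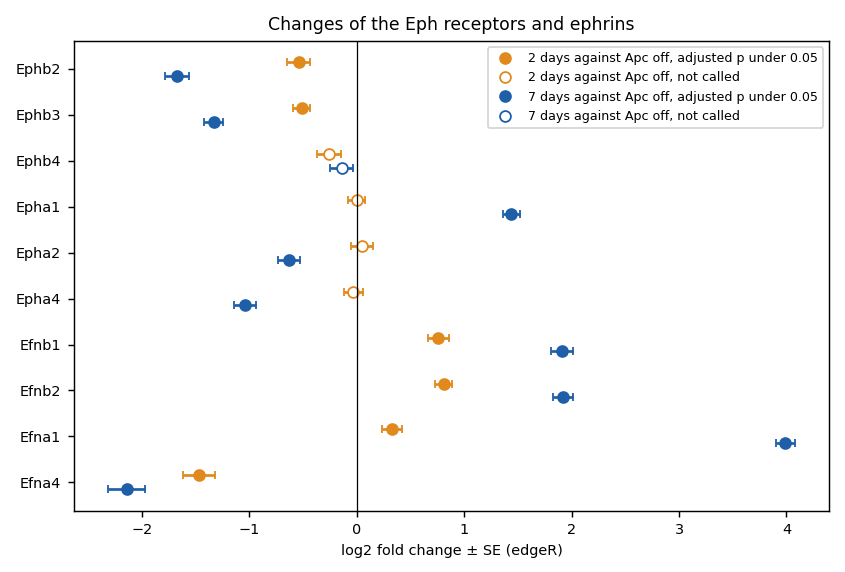
Log2 fold change ± SE of the 10 genes at 2 days and at 7 days against Apc off (control), from edgeR with 3 samples per group; filled points have an adjusted p under 0.05. The 3 A-type receptors lie at −0.03 to 0.05 at 2 days, and Efna1 at 7 days lies farthest out, at 3.99.

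Between 7 and 2 days, a comparison that uses no control sample, 4 of the 10 genes were higher at 7 days, 5 were lower and Ephb4 did not pass the test, against 79.1% of all genes called (39.2% higher and 39.9% lower). Efna1 rose 12.6-fold (log2 fold change 3.66 ± 0.09, edgeR adjusted p = 2.1e-14), Epha1 2.73-fold (1.45 ± 0.08, edgeR adjusted p = 1.9e-10), Efnb1 2.22-fold (1.15 ± 0.10, edgeR adjusted p = 3.8e-08) and Efnb2 2.15-fold (1.11 ± 0.08, edgeR adjusted p = 8.2e-09). Ephb2 fell 2.19-fold (−1.13 ± 0.11, edgeR adjusted p = 2.2e-07), Epha4 2.01-fold, Ephb3 1.76-fold, and Epha2 and Efna4 1.6-fold each, the last with an edgeR adjusted p of 0.0043. The groups did not overlap for 9 of the 10 genes, against 79.3% of all genes. Ephb4 differed by 0.12 ± 0.11 on the log2 scale (edgeR adjusted p = 0.33), and by −0.30 with library size alone (edgeR adjusted p = 0.012), so its direction depends on the scaling.

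**Figure D4:**
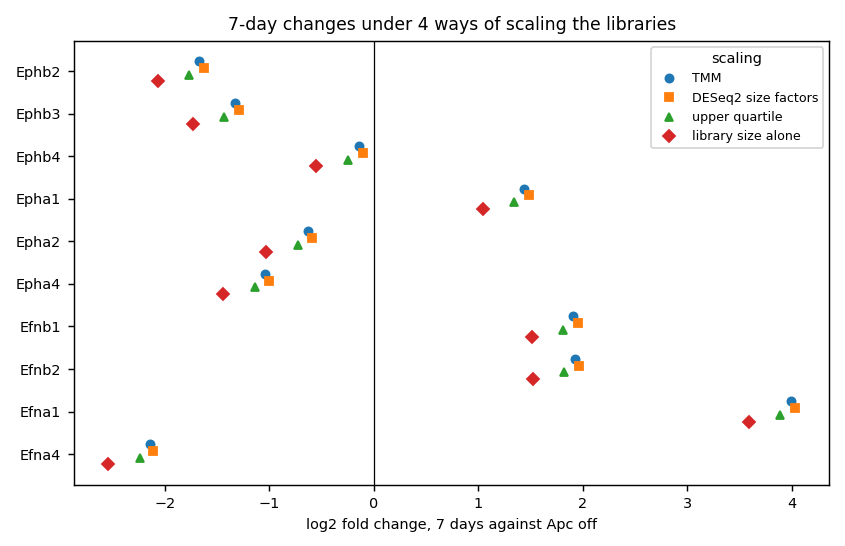
Log2 fold change at 7 days against Apc off (control) under 4 ways of scaling the libraries, for the 10 genes. Library size alone lies to the left of the other scalings for every gene. Ephb4 lies at −0.14 with TMM and at −0.55 with library size alone. All 10 genes keep their direction.

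Set in order of level per kilobase of exon, Epha2 came first in controls at 84.3 CPM per kilobase, followed by Ephb4 at 16.2, Efnb1 at 12.3, Ephb2 at 9.51, Ephb3 at 7.14 and Efnb2 at 6.29. Epha1 at 5.44 and Efna1 at 4.98 overlapped in their samples, as did Efna4 at 3.36 and Efna5, outside the 10 genes, at 3.35. Epha4 followed at 2.63. At 2 days Epha2 stayed first at 87.3 CPM per kilobase, followed by Efnb1 at 20.9, Ephb4 at 13.5 and Efnb2 at 11.1, while Ephb2 at 6.55 and Efna1 at 6.28 overlapped. At 7 days Efna1 came first at 79.5 CPM per kilobase, ahead of Epha2 at 54.6, Efnb1 at 46.2 and Efnb2 at 23.8. Epha1 at 14.8 and Ephb4 at 14.7 overlapped, and so did Ephb2 at 3.00 and Ephb3 at 2.85. With the median coding transcript as the length, Ephb2 had 25, 17.2 and 7.87 CPM per kilobase in controls, at 2 days and at 7 days, and ranked 2, 3 and 7 of the 15 tested family genes.

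Summed over the tested receptors of the family, the level was 126 ± 10.7 CPM per kilobase in controls, 121 ± 10.3 at 2 days and 91.8 ± 7.8 at 7 days. Summed over the tested ephrins it was 32.1 ± 1.76, 43.6 ± 1.51 and 152 ± 2.77 CPM per kilobase at the same times. Receptors thus outweighed ephrins in every control and 2-day library, and ephrins outweighed receptors in every 7-day library. Efna1 made up 15.5% ± 1.11 of the ephrin sum in controls, 14.4% ± 1.22 at 2 days and 52.1% ± 1.85 at 7 days. Epha2 made up 66.7% ± 1.08, 72% ± 0.11 and 59.4% ± 0.632 of the receptor sum, and Epha2 over Efna1 was 17 ± 2.17, 14 ± 1.92 and 0.686 ± 0.0391.

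Of the 12 other family genes, 5 passed the filter on low counts: Ephb6, Efna2, Efna3, Efna5 and Efnb3. At 2 days none rose and only Efna3 fell, and at 7 days none rose and 4 fell, against 10.6% and 41.8% of all genes called lower at these times. Efna5 averaged 13.4 ± 0.338 CPM in 2-day samples and 13.5 ± 1.15 CPM in controls, and at 7 days it fell 1.88-fold to 7.16 ± 0.39 CPM (log2 fold change −0.91 ± 0.10, edgeR adjusted p = 5.5e-07). Ephb6, a receptor without kinase activity, fell 1.91-fold at 7 days (−0.93 ± 0.18, edgeR adjusted p = 0.00016). Efnb3 fell at 7 days from low levels, with 15 counts over the 7-day libraries and 85 over the controls (edgeR adjusted p = 4.0e-05). Efna2 had 21 counts over the controls, 40 at 2 days and 16 at 7 days and did not pass the test. The 7 genes below the filter, Epha3, Epha5, Epha6, Epha7, Epha8, Epha10 and Ephb1, had 0 to 8 counts over the 3 libraries of any group.

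Genes that act with these receptors and ligands, such as adaptors, kinases, phosphatases, guanine nucleotide exchange factors and the ephrin-cleaving protease Adam10, formed a list of 40, of which 37 were tested. At 2 days 2 rose and 4 fell, against the 13.1% higher and 10.6% lower of all genes. Tiam1, an exchange factor for Rac, averaged 22.3 ± 2.55 CPM in 2-day samples and 41.9 ± 3.78 CPM in controls (log2 fold change −0.91 ± 0.10, edgeR adjusted p = 8e-06). Src, a kinase that acts below B-type ephrins, fell 1.56-fold (−0.64 ± 0.09, edgeR adjusted p = 8.6e-05), and Pak1, a kinase that Rac and Cdc42 activate, rose 1.33-fold (0.41 ± 0.07, edgeR adjusted p = 0.00079). Vav3, an exchange factor recruited to Eph receptors, rose 1.36-fold (0.45 ± 0.13, edgeR adjusted p = 0.02), a call lost without control replicate 1 or 2-day replicate 1, with an edgeR adjusted p of 0.078 and 0.089.

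At 7 days 16 of the 37 rose and 10 fell, against 40.5% and 41.8% of all genes. This split depends on the scaling: with library size alone 7 rose and 22 fell. Kalrn, a guanine nucleotide exchange factor, rose 4.99-fold to 64.7 ± 1.85 CPM in 7-day samples, against 12.9 ± 1.16 CPM in controls (log2 fold change 2.32 ± 0.09, edgeR adjusted p = 2.9e-12). Tiam1 fell 6.72-fold to 6.23 ± 0.535 CPM (−2.75 ± 0.11, edgeR adjusted p = 6.9e-12). Abl1, a kinase, rose 2.2-fold (1.14 ± 0.07, edgeR adjusted p = 1.2e-09), and Rgs3, which binds B-type ephrins and damps G protein signals, rose 2.56-fold (1.36 ± 0.09, edgeR adjusted p = 2.2e-09). Between 7 and 2 days 13 rose and 10 fell (7 and 21 with library size alone), against 39.2% and 39.9% of all genes, and the same 4 genes had the smallest p, with log2 fold changes of 2.45 for Kalrn, −1.84 for Tiam1, 1.17 for Abl1 and 1.40 for Rgs3.

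**Figure D5:**
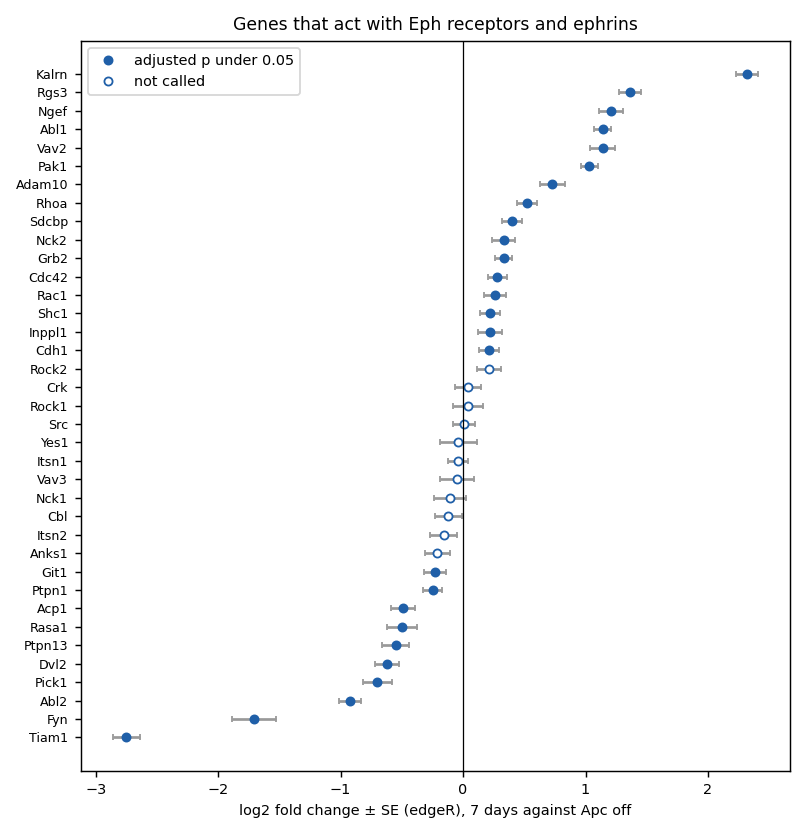
Log2 fold change ± SE at 7 days against Apc off (control) for the 37 tested genes that act with Eph receptors and ephrins, from edgeR with TMM scaling and 3 samples per group; filled points have an adjusted p under 0.05. Kalrn at 2.32 and Tiam1 at −2.75 lie farthest out, and with library size alone the counts would be 7 higher and 22 lower in place of 16 and 10.

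The genes whose pattern was most like each member's were found by the root mean square difference of log2 CPM over the 9 samples. Each gene was first centred on its control mean. The candidates were 9595 genes with at least 5 CPM on average, leaving out predicted genes (Gm or Rik symbols), pseudogenes and genes without an annotated type. Nearest to Ephb2 were Nfix, Rbm19 and Mthfd1, at 0.064 to 0.108, and 264 genes lay within 0.25. Nearest to Ephb3 were Zfp771, Ccnd1 and Lrrc8c, with 528 genes within 0.25. For Efnb1 they were Dok4, Osgin1 and Tjp3 (103 genes within 0.25) and for Efnb2 they were Maml2, Marcks and Prkg2 (98 genes). Like Ephb3, the A-type receptors and Ephb4 had patterns shared by many genes, with 507 genes within 0.25 for Epha1, 1368 for Epha4, 1600 for Epha2 and 1280 for Ephb4. Efna1 had 16 genes within that distance, led by Ehhadh, Aldoc and Papss2 at 0.147 to 0.178. Efna4 had 4, led by Pax9 at 0.12, Hopx at 0.215 and Dtna at 0.234. Efna4 itself averaged below the 5 CPM asked of the candidates, so genes as rare as Efna4 were not searched. Likeness of pattern says nothing of shared control.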

How the data were processed

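A single table of raw read counts per Ensembl gene covering the 9 samples was deposited by the authors. Per the labels, poly(A) RNA was made into libraries with a NEBNext Ultra II RNA kit. Per the submitters' processing notes, STAR 2.7.0e, featureCounts and DESeq2 were used, with builds mm10 and GRCm38; no annotation release or strand setting is given in the sources used here. Symbols, exon lengths and coordinates were taken from GENCODE M21, which held 21236 of 21253 IDs, and promoters from RefSeq GRCm38.p6.

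Samples were grouped by their titles. Counts were filtered with filterByExpr, scaled by TMM and tested with edgeR 4.0.16 (quasi-likelihood, two-sided, all 9 samples, group as the only term; common dispersion 0.00723), with Benjamini-Hochberg adjustment over 12535 genes and a threshold of 0.05. A 95% interval of a log2 fold change is from the same fit. Levels per kilobase used the union of annotated exons. No pair of replicates agreed within sampling noise (chi-square per degree of freedom 4.24 to 38.3). On simulated counts the code recovered 92.5% of 67 genes changed by 1.5-fold in the 2-day comparison, run on 12114 genes, 95.5% for 7 days against control, run on 12140 genes, and 91% for 7 against 2 days, run on 12115 genes, where 94% of the 67 changed by 2-fold were recovered. Of its calls, 4.88%, 3.9% and 6.86% in these comparisons were of genes simulated without change, the last above the threshold. The simulated counts of all groups were drawn from the control means with a single dispersion, and few genes were changed. They therefore did not test the scaling under the 7-day shift in composition.

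The genes, lists, tests and motifs were chosen with earlier results of these data known. Named were the 10 genes, the rest of the family, per comparison the 4 called pathway genes with the smallest p, and the 3 genes nearest in pattern to a member. Alternatives were other scalings, filters and tools (DESeq2 1.42.0, limma 3.58.1), only the groups compared, a replicate block, and leaving out each sample in turn.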

Additional observations from a re-analysis of the deposited data

Results flagged for a closer look

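For 9 of the 10 genes the change against controls differed between the times. Because both times share the controls, this difference is the log2 fold change of 7 days against 2 days, tested in the same edgeR model. It was 3.66 for Efna1, 1.45 for Epha1, 1.15 for Efnb1, 1.11 for Efnb2, −0.68 for Epha2, −0.68 for Efna4, −0.82 for Ephb3, −1.01 for Epha4 and −1.13 for Ephb2. Of all genes tested, 79.1% were called in this comparison, so a difference between the times is the usual case in these libraries. Ephb4 was the member for which it did not pass the test. Groups of 3 are too small for a check of single outlying samples.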

How the results depend on the processing

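The 10 genes gave 537 values under 18 alternatives, of which 527 kept their direction and their side of the threshold. The others were the 3 lost calls of Efna1 at 2 days, 6 gained calls of Ephb4, and Ephb4 between 7 and 2 days, which turned to −0.30 with library size alone. Src at 7 days, 0.01 with TMM, turned to −0.39 with that scaling. Of 432 counts of calls, 409 stayed within 1.5 times. Library size alone gave 7 higher and 22 lower pathway genes at 7 days, and 7 higher and 21 lower between 7 and 2 days; of all called genes at 7 days 34.8% were then higher, against 49.2% with TMM, and between 7 and 2 days 31.8%, against 49.5%. Of the 5 other family genes, 2 fell at 2 days with no filter, under the replicate block or with only the compared groups fitted. With a mean of at least 5 CPM, a filter that removes Efna4, none (0) of those other genes fell at 2 days, 1 at 7 days and 1 between 7 and 2 days, and 1 pathway gene rose at 2 days; fewer genes are tested there.

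Whether replicate numbers pair the samples was left unclear. Deviations of same-numbered samples correlated at −0.13 to 0.48, and 4 of 9 pairs exceeded 0.1, while other pairs correlated at −0.44 to 0.17. Between 7-day and control samples the correlation was 0.33 for replicate 1, −0.01 for replicate 2 and 0.48 for replicate 3. With a replicate block, 2076 genes rose and 1963 fell at 2 days, against 1636 and 1333 without it, and 5 pathway genes rose; Ephb4 at 2 days was −0.26 (edgeR adjusted p = 0.0051). Leaving out a sample gave 809 to 1517 genes lower at 2 days, the lowest without control replicate 2, with 1 to 4 pathway genes higher, 2 to 4 lower and 1 to 2 other family genes lower. Levels per kilobase with the median coding transcript and the ratios formed from them moved by over 1 SD in 37 of 51 cases. Depth limits Efna4, Efna3, Efnb3 and Efna2 most, since they had the fewest counts. The causes of these shifts were not tested.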
